A study of Mus musculus with 6 samples.

Results

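Glutathione, glucuronosyl and sulfo transferases are the enzymes that join a polar group to reactive or fat-soluble compounds, and 41 of their genes were measured in liver tumours of wild-type and Alb/AEG-1 mice, of 12393 genes on the array with a symbol of their own. Members were taken by name: a probe set belonged if its only gene symbol began with Gsta, Gstk, Gstm, Gsto, Gstp, Gstt, Gstz, Mgst, Ugt or Sult followed by a number. Of 59 probe sets with such a symbol, 5 carried several symbols and were left out. The other 54 gave 18 soluble glutathione transferases, 3 microsomal glutathione transferases, 9 glycosyltransferases of the Ugt family and 11 sulfotransferases. Where a gene had several probe sets, the one with the highest mean over the 6 arrays stood for it.

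The 6 tumours came from male mice labelled with the CD-1 background, 3 wild-type and 3 Alb/AEG-1, and both genotypes had received the same carcinogen. N-nitrosodiethylamine, an alkylating liver carcinogen, had been injected once into the peritoneum at 14 days of age, at 10 µg per g body weight, and tumours were collected at 28 weeks. Every array therefore reads carcinogen-induced tumour, with no untreated or non-tumour liver among the samples. The transgene was a 5.3-kb fragment injected into embryos of B6CBAF1/J matings. Its name joins Alb, the albumin gene whose promoter is active in hepatocytes, to AEG-1, the protein made by the mouse gene Mtdh. The brightest Mtdh probe set read 9.32, 9.03 and 9.16 in the wild-type and 9.57, 9.40 and 9.15 in the transgenic tumours, so the groups overlapped. The species of the injected cDNA is not given in the labels, and a mouse probe set may not read it.

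Values are log2 levels after RMA, a procedure that corrects background, equalizes the distributions of the arrays and summarizes each probe set, so a difference of 1 is a change of 2-fold. Levels of different probe sets are not comparable with each other. Array medians ran from 5.82 to 5.84, and the 15 pairs of arrays correlated at 0.987 to 0.993 across probe sets. Across the hepatocyte marker list, of which 14 genes were measured, the mean level was 13.65 to 13.69 in the wild-type and 13.70 to 13.73 in Alb/AEG-1 tumours. The tumour and fetal marker list read 5.08 to 5.37 in the wild-type and 6.68 to 8.32 in Alb/AEG-1 tumours, and the macrophage list 7.14 to 7.58 and 7.51 to 8.11. Of the 9 tumour and fetal genes measured, 7 were higher at an unadjusted p under 0.05, and of the 12 macrophage genes 4 were, with all 12 differences positive, while 3.86% of all genes passed that threshold upward. These lists were chosen with earlier results of these data known, so the counts are a description only. The part of these lists in the differences below was not tested. In such bulk tissue, fewer cells of a type and less RNA per cell cannot be told apart.

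Glutathione transferases attach the thiol of glutathione to electrophiles such as lipid aldehydes, epoxides and quinones. The soluble enzymes are grouped into classes named by letters, and the microsomal enzymes are unrelated membrane proteins. Ugt enzymes of the endoplasmic reticulum transfer a sugar, usually glucuronic acid, to steroids, bilirubin, bile acids and drugs, and sulfotransferases of the cytosol transfer sulfate from the donor PAPS to phenols, catecholamines and steroids. Liver is the main site of all these reactions, and many of the genes are known to respond to the factor Nrf2 or to the receptors CAR and PXR.

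Nrf2 acts through the antioxidant response element. The core letters TGACNNNGC were sought on both strands of the RefSeq promoter windows (250 bases before to 50 after the gene start, build GRCm38.p6), and the matches are shown because this element is the best known control site of the family. Of the 41 members, 36 had a window in the table. Gsta4, Gstt2, Sult2a2, Sult4a1 and Ugt3a2 did not match an entry. The core was found in 4 members, 11.1% of 36, against 14.0% of the 27025 genes in the table. Each line gives 30 bases, 5′ to 3′ along the gene's strand, with the match in capitals. The Mgst1 match lies on the opposite strand.

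Gsta3 (chr1:21240454-21240483, plus strand): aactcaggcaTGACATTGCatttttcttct
Gstm5 (chr3:107895802-107895831, plus strand): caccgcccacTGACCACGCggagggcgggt
Gstm7 (chr3:107931724-107931753, minus strand): tctgaagaccTGACAAAGCgaagccaatcc
Mgst1 (chr6:138140461-138140490, plus strand): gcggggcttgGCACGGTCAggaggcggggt

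The first base of each match lay 121 bases before the gene start in Gsta3, 42 in Gstm5, 129 in Gstm7 and 56 in Mgst1. These genes differed between genotypes by -0.18, 0.24, -0.11 and -0.02, so they shared no direction. A further 2 motifs were searched in the same windows on both strands. The nuclear receptor half-site AGGTCA was found in 7 of the 36 genes (19.4%) against 18.1% of all genes, and the TATA box letters TATAAA in 8 (22.2%) against 15.7%. A match describes letters only and shows no binding.

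No member of the family differed between genotypes at an adjusted p under 0.05, in limma with p-values adjusted by Benjamini-Hochberg across the 22626 probe sets. Of all genes 0% did, in either direction, and the smallest adjusted p among the members was 0.611. Without adjustment, 2 members passed p under 0.05, both lower in Alb/AEG-1 tumours (Mgst3 and Sult1a1, 4.88% of the 41), against 4.47% of all genes lower. None passed in the higher direction, where 3.86% of all genes did. With a difference of at least 1.5-fold as well, 1 member was lower (Mgst3, 2.44%) against 0.153% of all genes, and 0 were higher against 0.775%.

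The median difference of the 41 members was -0.07, against -0.01 for all genes. It was -0.13 without wild-type replicate 3, -0.12 without transgenic replicate 3 and -0.04 without wild-type replicate 2. By sign, 15 members were higher in Alb/AEG-1 tumours and 26 lower, with differences from -0.85 to 0.98. The median within-group SD was 0.22 for the members and 0.133 for all genes, but the families differed. It was 0.27 for the soluble glutathione transferases and 0.26 for the sulfotransferases. For the Ugt genes it was 0.126 and for the microsomal enzymes 0.069, both below that of all genes. The microsomal value is a median of only 3 genes. Among them Mgst3 had an SD of 0.71 in the wild-type and 0.28 in the transgenic tumours. Levels differed too: 9 of the 41 members lay below the median level of all probe sets, against 5378 of the 12393 genes. The 95% interval of the difference lay within 1.5-fold either way for 23 members (56.1%), against 86.7% of all genes. For the other 18 members these arrays cannot exclude a difference of 1.5-fold. The 23 include Mgst2, Sult1e1, Sult2b1, Sult3a1, Sult4a1, Ugt2b37 and Ugt8a, which lay below the median level of all probe sets. At such levels a narrow interval does not exclude a change in the transcript.

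**Figure D1:**
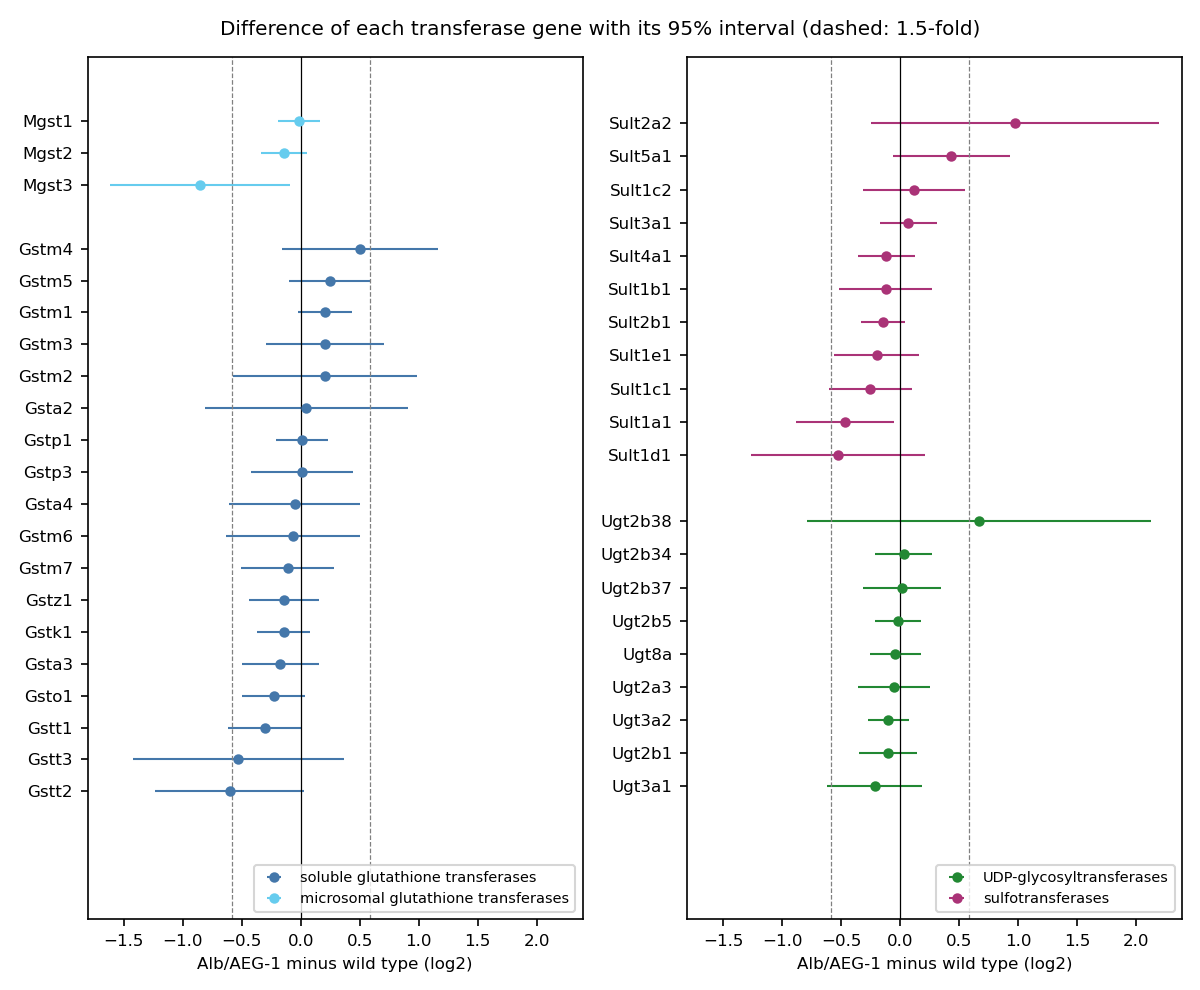
Difference between the genotypes for the 41 genes (x axis, Alb/AEG-1 minus wild type on the log2 scale; points are means of 3 arrays minus means of 3 arrays, bars are 95% intervals from limma, dashed lines mark 1.5-fold). Differences run from -0.85 for Mgst3 to 0.98 for Sult2a2, and only the intervals of Mgst3 and Sult1a1 leave out 0.

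Among the microsomal enzymes, Mgst3, a membrane peroxidase and transferase, had the most negative difference of the whole family. It read 8.97, 7.80 and 9.07 in the wild-type and 7.62, 7.58 and 8.08 in the transgenic tumours. All 3 transgenic values were low, but wild-type replicate 2 lay among them, so the groups overlapped. The difference was -0.85 ± 0.33 (SE, n = 3 arrays per group; unadjusted p = 0.0328, adjusted p = 0.611, limma), or 1.81-fold lower. Among arrays with lower animal numbers it was -1.37, and among those with higher numbers, the ranges described further on, -0.36. Without wild-type replicate 2 it was -1.26 (unadjusted p = 0.000196, adjusted p = 0.469). The unadjusted p was 0.101 without wild-type replicate 1, 0.11 without wild-type replicate 3, 0.0892 without Alb/AEG-1 replicate 1 and 0.0942 without Alb/AEG-1 replicate 2, and 0.0563 in robust limma. A second, dimmer probe set for the gene, at 4.52, 4.70 and 4.68 against 4.13, 4.40 and 4.33, separated the genotypes with a difference of -0.34 ± 0.10.

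Mgst1, the abundant microsomal transferase that shields membranes from lipid peroxides, was nearly level across the tumours. It read 14.02, 14.03 and 14.00 in the wild-type and 13.94, 14.03 and 14.03 in the transgenic tumours. Its difference was -0.02 ± 0.08, with a 95% interval from -0.20 to 0.16. A value near 14 lies close to the top of each array's scale, where the highest probe set read between 14.85 and 14.86. Mgst2, which can make leukotriene C4, lay below the median level of all probe sets (5.83) and differed by -0.14 ± 0.08. On the probe sets that stand for them, all 3 microsomal genes thus had negative differences, of which only that of Mgst3 passed the unadjusted threshold. A second, dimmer Mgst1 probe set had the opposite sign, at 0.05 ± 0.22.

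On the probe sets that stand for them, none of the 18 soluble glutathione transferases passed even the unadjusted threshold, and 8 had positive and 10 negative differences. The theta class, which handles small halogenated compounds, was lower in Alb/AEG-1 tumours in all 3 members. Gstt2 read 9.27, 9.97 and 9.75 in the wild-type and 8.59, 8.98 and 9.60 in the transgenic tumours. The transgenic values were lower except for replicate 3, which lay inside the wild-type range, and the difference was -0.60 ± 0.27 (unadjusted p = 0.0588, adjusted p = 0.619, limma). Gstt3 read 8.36, 9.03 and 8.70 against 7.63, 7.76 and 9.12, a difference of -0.53 ± 0.38. Its transgenic replicate 3 was the highest of all 6 arrays, and the genotypes differed by -0.67 among the lower animal numbers and by 0.25 among the higher. Gstt1 differed by -0.31 ± 0.13, from a mean of 11.77 ± 0.17 (SD, n = 3) to 11.47 ± 0.21.

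The mu class, broad-spectrum detoxifying enzymes, had 5 positive and 2 negative differences among its 7 members, with a median of 0.21. Gstm4 read 8.84, 8.36 and 7.55 in the wild-type and 8.80, 8.77 and 8.68 in the transgenic tumours. The transgenic arrays agreed closely and the wild-type ones spread over more than a unit, so the groups overlapped, and the difference was 0.50 ± 0.28 (unadjusted p = 0.117). Gstm1, an abundant liver enzyme of the class, read 12.02, 11.72 and 11.82 against 12.06, 12.03 and 12.11. Its groups did not overlap, with a difference of 0.21 ± 0.10 (unadjusted p = 0.0706, adjusted p = 0.63). Of its other probe sets, 1 differed by 0.25 ± 0.10 without overlap (unadjusted p = 0.0468, adjusted p = 0.617, limma). The others differed by 0.15 ± 0.11 and -0.03 ± 0.12, so the probe sets of the gene disagreed in sign. The probe set that stands for Gstm1 is of the x_at type, whose probes may bind related transcripts. The remaining mu genes differed by between -0.11 (Gstm7) and 0.24 (Gstm5).

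Gstp1, the pi-class enzyme, read 13.93, 13.90 and 13.73 in the wild-type and 13.90, 13.94 and 13.76 in the transgenic tumours. The groups overlapped almost wholly and the difference was 0.01 ± 0.09, with a 95% interval from -0.21 to 0.23. Gsta3, an alpha-class enzyme that conjugates the aflatoxin epoxide in mice, read 13.05, 13.04 and 13.17 against 12.72, 12.79 and 13.23. Transgenic replicates 1 and 2 were below every wild-type array and replicate 3 above them, for a difference of -0.18 ± 0.14. Gsta4, which clears the lipid aldehyde 4-hydroxynonenal, differed by -0.05 ± 0.24 and Gsta2 by 0.05 ± 0.37, both with wide spread. The single members of the other classes were all slightly lower: Gsto1, a thiol reductase, by -0.23 ± 0.11, Gstk1 of mitochondria and peroxisomes by -0.15 ± 0.10, and Gstz1, an isomerase of tyrosine breakdown, by -0.14 ± 0.13.

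Among the sulfotransferases, Sult1a1, the main phenol sulfotransferase of liver, had the smallest p of the family. It read 11.52, 11.78 and 12.00 in the wild-type and 11.07, 11.17 and 11.64 in the transgenic tumours. Transgenic replicate 3 lay above the lowest wild-type array, so the groups overlapped. The difference was -0.47 ± 0.18 (unadjusted p = 0.0308, adjusted p = 0.611, limma), and it was -0.40 among the lower and -0.25 among the higher animal numbers. With the number range as a term in the fit it was -0.32 (unadjusted p = 0.0174, adjusted p = 0.728). The unadjusted p lay between 0.0697 and 0.106 without wild-type replicate 2 or 3 or without Alb/AEG-1 replicate 1 or 2.

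Sult1d1, which sulfates catecholamines, read 9.55, 10.32 and 10.65 in the wild-type and 9.22, 9.59 and 10.14 in the transgenic tumours. The range of values inside each genotype was wider than the difference, -0.53 ± 0.32 (unadjusted p = 0.137). Sult2a2, a hydroxysteroid and bile acid sulfotransferase of female liver, had the most positive difference of the family, and 1 array made most of it. It read 3.21, 3.19 and 3.49 in the wild-type and 3.57, 5.68 and 3.57 in the transgenic tumours. Although the groups did not overlap, the difference was 0.98 ± 0.52 with all arrays and 0.27 without transgenic replicate 2, and every value lay below the median level of all probe sets. Sult5a1 differed by 0.43 ± 0.21, with transgenic replicates 1 and 2 at 7.68 and 7.60 and replicate 3 at 6.86 beside wild-type values of 6.86, 7.11 and 6.87. Of the 11 sulfotransferases, 6 lay below that median level (Sult1c1, Sult1e1, Sult2a2, Sult2b1, Sult3a1 and Sult4a1).

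**Figure D2:**
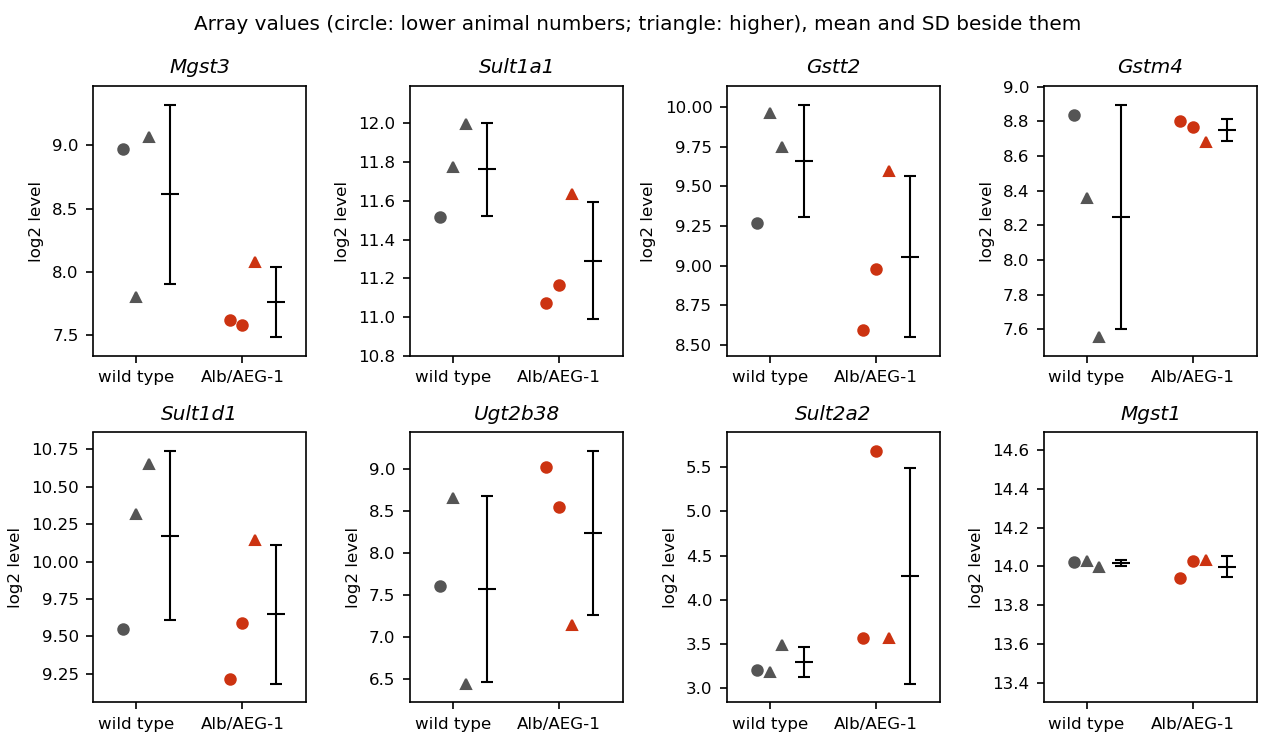
Log2 level on each array for 8 of the genes described (circles, lower animal numbers; triangles, higher; black bars, mean and SD of 3 arrays; each panel has its own axis, which does not start at 0). Wild-type replicate 2 of Mgst3 (7.80) sits among the transgenic arrays, Alb/AEG-1 replicate 2 of Sult2a2 (5.68) stands far above the others, and the Mgst1 arrays lie between 13.94 and 14.03.

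Of the 9 Ugt genes, mostly enzymes for steroids and bile acids, none passed the unadjusted threshold and 7 had a 95% interval within 1.5-fold. Of those 7, Ugt2b37 and Ugt8a lay below the median level of all probe sets. Ugt2b5 read 12.87, 12.91 and 12.92 in the wild-type and 12.96, 12.90 and 12.78 in the transgenic tumours, a difference of -0.02 ± 0.08 with overlapping groups. Ugt2b1 read 12.72, 12.61 and 12.55 against 12.34, 12.62 and 12.61, a difference of -0.10 ± 0.10 that was -0.012 without transgenic replicate 1. Ugt3a1, which transfers N-acetylglucosamine, read 10.06, 9.57 and 9.54 against 9.32, 9.43 and 9.76, a difference of -0.22 ± 0.17. Its second probe set differed by 0.01 ± 0.18.

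Ugt2b38 was the exception in spread. It read 7.60, 8.65 and 6.44 in the wild-type and 9.02, 8.54 and 7.15 in the transgenic tumours, so values of each genotype ran over more than a unit. The difference of 0.67 ± 0.62 had a 95% interval from -0.79 to 2.12, and the genotypes differed by 1.18 among the lower and by -0.40 among the higher animal numbers.

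The genotypes did not overlap in 4 members. Gstm1 and Sult2a2 were higher in every transgenic array (4.88% of members, against 6.77% of all genes), and Sult2b1, which sulfates cholesterol, and Ugt3a2 were lower (4.88%, against 8.31%). Ugt3a2 read 11.46, 11.42 and 11.36 in the wild-type and 11.32, 11.32 and 11.31 in the transgenic tumours, a difference of -0.10 ± 0.08. Both shares were below the background.

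A pattern within the genotypes was seen only after the values had been examined. The titles carry numbers, called animal numbers here, with a wide gap above 80. The lower numbers belong to the first wild-type array (66) and to transgenic replicates 1 and 2 (76 and 80), and the higher numbers to the other 2 wild-type arrays and transgenic replicate 3. The labels do not say what the numbers stand for. In an additive limma fit of genotype and range, 9 members had an unadjusted p under 0.05 with higher values in the higher numbers (22%), against 4.33% of all genes. In the opposite direction 1 member passed (Gstm7, 2.44%), against 4.41%. None passed at an adjusted p under 0.05, and 0% of all genes did in either direction. The values of the higher numbers all lay above those of the lower in 10 members (24.4%) against 8.3% of all genes, and all below in 4 (9.76%) against 8.09%.

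The 9 members were the 3 theta-class genes, Gsta2, Gsta4, Sult1a1, Sult1c2, Sult1d1 and Sult1e1. The count depended on Alb/AEG-1 replicate 3, the only transgenic array of the higher numbers. Without it 3 members were above (Gstt2, Gstt3 and Sult1d1), against 3.24% of all genes, and 6 below, against 3.75%. Without any other single array, 7 to 9 members were above, against 3.62% to 4.53% of all genes, and 1 or 2 below. Those counts do not refer to a fixed set of genes: without wild-type replicate 1, the 7 included Gsta3, Gstm2 and Ugt3a1.

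Sult1d1 had the smallest p for the range. It read 9.55, 9.22 and 9.59 in the lower numbers and 10.32, 10.65 and 10.14 in the higher, with no overlap, a difference of 0.84 ± 0.15 (unadjusted p = 0.000825, adjusted p = 0.22, limma). The step was 0.93 between the wild-type arrays and 0.74 between the transgenic ones. Gstt2 differed by 0.70 ± 0.14 (adjusted p = 0.26), Gstt3 by 0.97 ± 0.21 (adjusted p = 0.287) and Sult1a1 by 0.44 ± 0.10 (adjusted p = 0.322), and in each the ranges did not overlap. Sult1e1, the oestrogen sulfotransferase, differed by 0.31 ± 0.13 at a level below the median of all probe sets.

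By class, all 6 Sult1 genes and all 3 theta-class genes had higher means in the higher numbers, and all 7 mu-class genes had lower ones. After quantile normalization 8 of those 9 Sult1 and theta-class genes were higher. The count was also 8 without wild-type replicate 1 or 2, or without Alb/AEG-1 replicate 1 or 3. Sult1c1, which lay below the median level of all probe sets, had a range effect of only 0.01 ± 0.17. The mu-class direction rested on wild-type replicate 1: without it 3 of 7 were lower. For Gstm4 the range effect was -0.49 ± 0.25, and the genotypes differed by -0.05 among the lower numbers and by 0.73 among the higher. Since the lower numbers hold 2 of the 3 transgenic arrays and the higher numbers 2 of the 3 wild-type arrays, the range moves with the genotype. With the range as a term, the genotype difference of Gstt2 went from -0.60 to -0.37 (unadjusted p = 0.034), that of Gstt3 from -0.53 to -0.21 and that of Sult1d1 from -0.53 to -0.25.

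**Figure D3:**
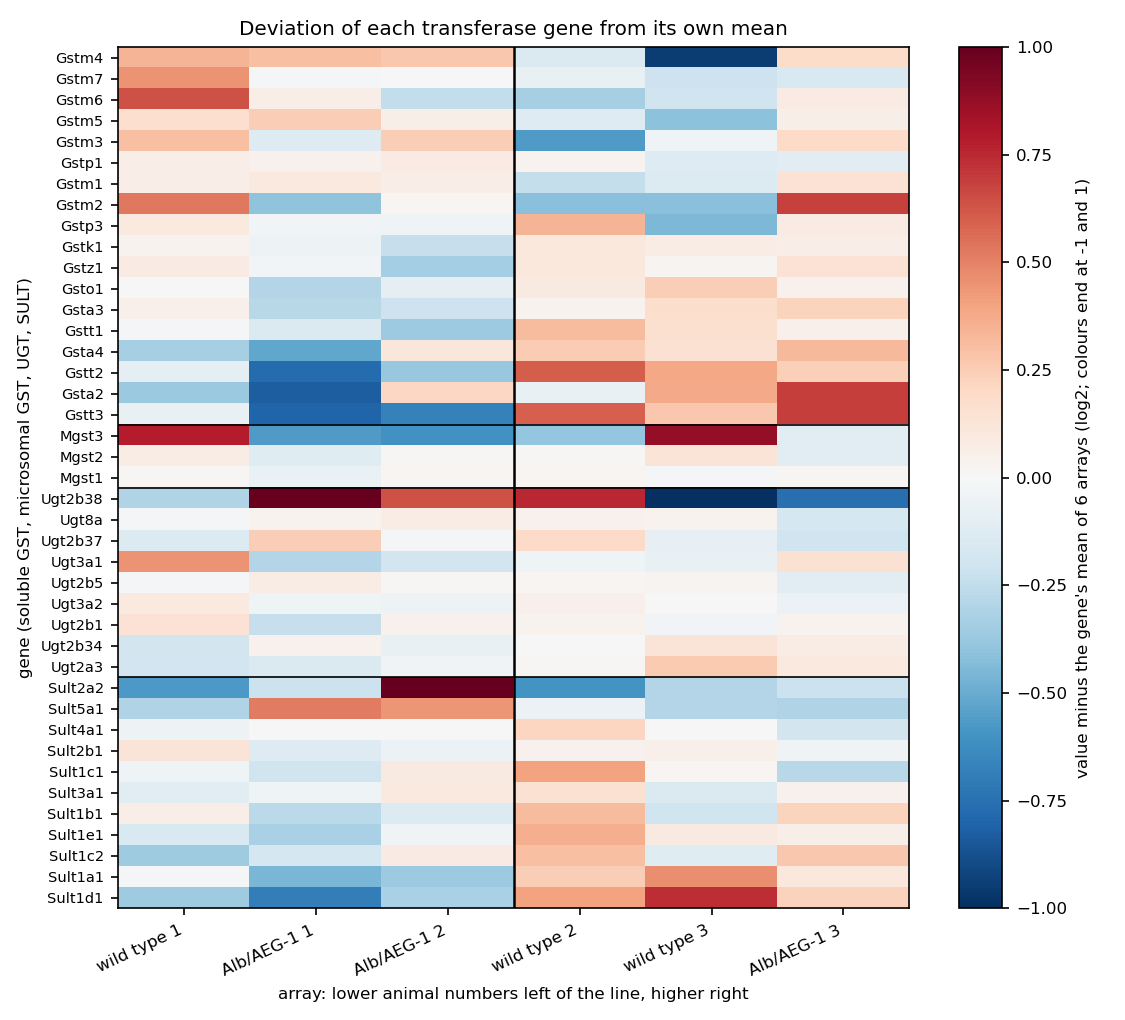
Deviation of each of the 41 genes from its own mean of 6 arrays (colour, log2; red above, blue below, ending at -1 and 1), with the lower animal numbers left of the vertical line and the higher right of it; horizontal lines part the 4 families. Gstt1, Gstt2, Gstt3, Sult1a1 and Sult1d1 are blue or near white on the left and red or near white on the right. Gstt1 and Sult1a1 are near white in Alb/AEG-1 replicate 3. Several mu-class genes show the reverse, led by wild-type replicate 1.

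**Figure D4:**
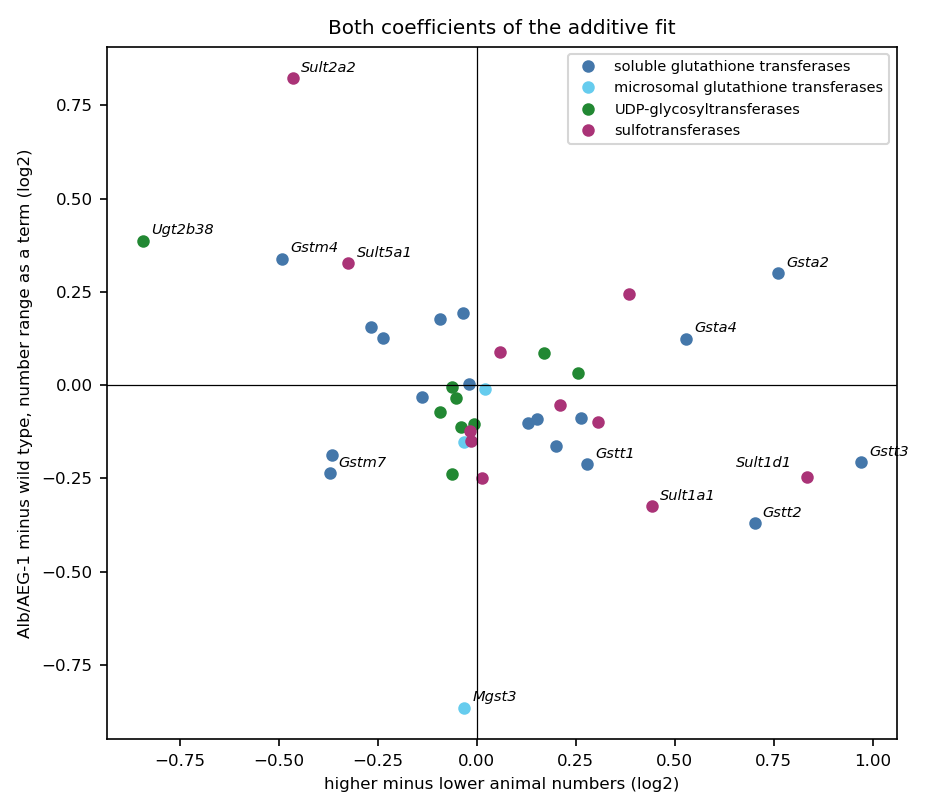
Coefficients of the additive fit for the 41 genes, with the animal number range on the x axis (higher minus lower, log2) and the genotype on the y axis (Alb/AEG-1 minus wild type, log2); colours mark the families. Mgst3 lies far down at a range effect near 0 (-0.03), while Sult1d1, Gstt2 and Gstt3 lie far right. For Mgst3 the step from lower to higher numbers was -0.54 between the wild-type arrays and 0.48 between the transgenic ones.

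The members were also set in their order along the chromosomes, leaving out genes that are not members. On chromosome 3 the mu-class genes come in the order Gstm5, Gstm7, Gstm6, Gstm3, Gstm2, Gstm1 and Gstm4, with genotype differences of 0.24, -0.11, -0.07, 0.21, 0.20, 0.21 and 0.50. On chromosome 10 Gstt3, Gstt1 and Gstt2 follow each other, and all 3 were lower by sign. On chromosome 5 a run of 6 Ugt2 genes is followed by Sult1b1, Sult1d1 and Sult1e1. In that run the Ugt2 genes had differences of both signs, from -0.10 to 0.67, and the 3 sulfotransferases had negative ones, from -0.53 to -0.12. Neighbours of 1 class share sequence, and their probe sets may share signal.

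Genes that supply the enzymes with their co-substrates were read from lists, and none passed at an adjusted p under 0.05 between genotypes. Of all genes, 3.86% passed the unadjusted threshold upward and 4.47% downward, and the calls in these short lists are few. Of 12 glutathione supply genes, 1 passed upward and 2 downward. Ggct, an enzyme of the gamma-glutamyl cycle, differed by 0.59 ± 0.24, Cth, which makes cysteine, by -0.35 ± 0.15 and Ggt5 by -0.24 ± 0.09. Of 8 genes listed for UDP-glucuronic acid and its transport, 2 passed upward and 1 downward. Ugdh, the dehydrogenase that makes UDP-glucuronic acid, read 10.15, 10.07 and 10.06 in the wild-type and 10.51, 10.43 and 10.16 in the transgenic tumours, a difference of 0.27 ± 0.11 (unadjusted p = 0.037) without overlap. Slc35b1 and Slc35a3, listed as carriers, differed by 0.38 ± 0.11 and -0.36 ± 0.11. Whether they carry UDP-glucuronic acid was not tested.

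Of 10 genes of sulfate activation, 11 of conjugate export and 13 of other conjugation reactions, none passed the unadjusted threshold for genotype. Papss2, which makes the sulfate donor PAPS, differed by -0.77 ± 0.39. Of 20 regulators, Nfe2l2, the gene of Nrf2, passed upward and Ppara and Stat5b downward at the unadjusted threshold. Nfe2l2 read 9.25, 8.95 and 9.07 in the wild-type and 9.36, 9.45 and 9.31 in the transgenic tumours, a difference of 0.28 ± 0.10 (unadjusted p = 0.0251, adjusted p = 0.609, limma). Ppara, the fatty acid receptor, differed by -0.56 ± 0.16 and Stat5b, which carries growth hormone signals, by -0.23 ± 0.09.

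Of the 20 regulators, 3 had an unadjusted p under 0.05 with higher values in the higher animal numbers and 0 with lower, against 4.33% and 4.41% of all genes, and none passed after adjustment. The genes given here were chosen after their values were seen. Nr1i3, the gene of CAR, read 7.82, 7.72 and 7.95 in the lower numbers and 8.91, 9.23 and 9.03 in the higher, a difference of 1.22 ± 0.12 (adjusted p = 0.0839, limma). Nr1i2, the gene of PXR, read 6.58, 6.84 and 6.72 against 7.22, 7.18 and 7.39, a difference of 0.62 ± 0.09 (adjusted p = 0.152). Cyp2b10, a CAR target, read 6.77, 5.32 and 6.11 against 7.35, 7.91 and 8.09. In these 3 genes the ranges did not overlap, in either genotype. The remaining regulator was Cebpb, a liver transcription factor, at 1.13 ± 0.29.

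For the range, 1 of the 10 sulfate genes passed the unadjusted threshold upward and 1 downward, 2 of the 11 export genes upward, and 3 of the 12 glutathione supply genes downward. Of the 13 genes of other conjugation reactions, 4 passed upward and 0 downward. Of the 8 genes listed for UDP-glucuronic acid, 0 passed in either direction. Papss2 separated the ranges, by 1.003 ± 0.201, and so did the exporters Abcc3, by 0.58 ± 0.15, and Abcb1a, by 0.75 ± 0.14. Papss1, the other PAPS synthase, was the downward sulfate gene, at -0.55 ± 0.22. Gclc, the catalytic subunit of the enzyme that starts glutathione synthesis, went the other way, at 11.51, 11.21 and 11.26 in the lower numbers and 10.58, 10.83 and 10.68 in the higher, a difference of -0.68 ± 0.11 (adjusted p = 0.177). Of the 12 measured female-biased liver genes, 7 had an unadjusted p under 0.05 with higher values in the higher numbers and 0 with lower, and of the 12 male-biased genes 0 and 5. Of the 14 pericentral hepatocyte genes 4 were higher and 2 lower, and of the 11 periportal genes 1 and 4. The 14 hepatocyte markers showed 0 in either direction. Of all genes, 4.33% were higher and 4.41% lower at that threshold. The part of these lists in the range pattern of the transferases was not tested.

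**Figure D5:**
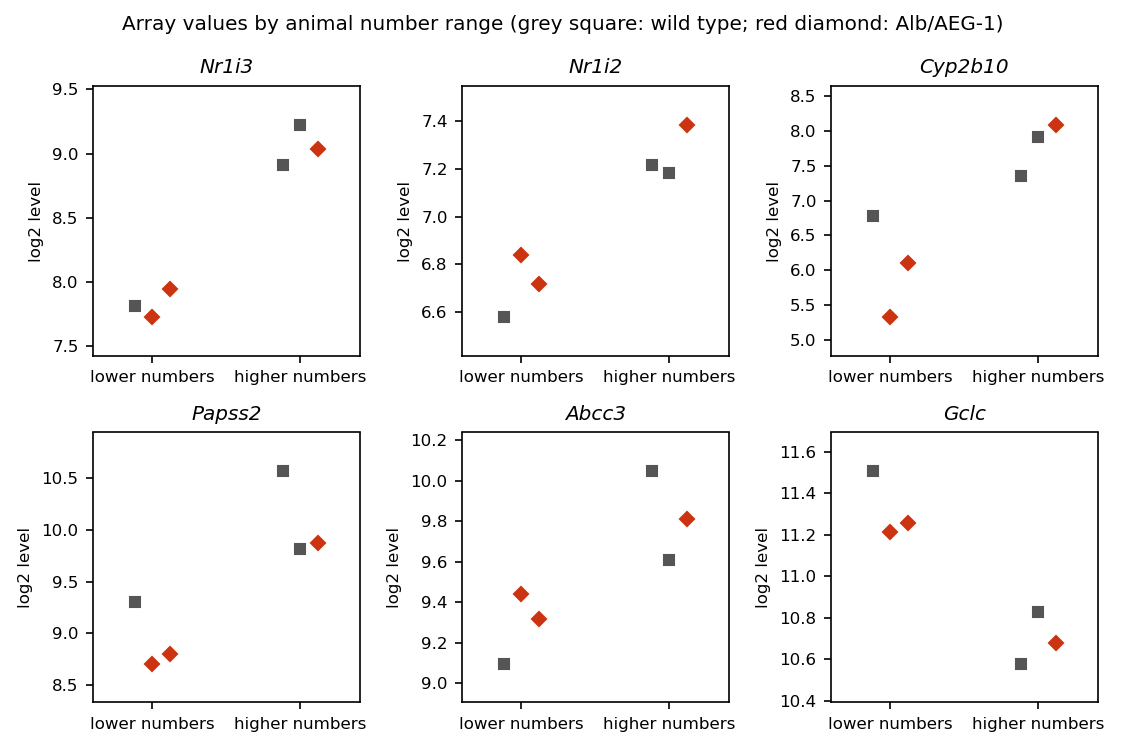
Log2 level on each array of 6 genes that control, supply or accompany conjugation, by animal number range (grey squares, wild type; red diamonds, Alb/AEG-1; each panel has its own axis, which does not start at 0). Nr1i3, Nr1i2, Cyp2b10, Papss2 and Abcc3 are higher and Gclc is lower in the higher numbers on every array, whatever the genotype.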

How the data were processed

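Per the labels' protocols, cRNA from 5 µg of total RNA was read on Affymetrix arrays. The authors deposited log2 values; the submitters' processing notes name RMA, with no version, and the genome build is not given in the sources used here. Each title carries a different number, and replicate numbers follow accession order. Whether each number is a separate animal, and whether tumours of an animal were pooled, is not stated. The p-values therefore measure the spread between these samples. The number of arrays, 3 per group, limits the precision.

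Control probe sets (64 of 22690) were left out, and 22626 were fitted with lmFit and eBayes (limma 3.58.1, R 4.3.3) with genotype as the factor. P-values were adjusted over all of them (Benjamini-Hochberg). Only this genotype fit was tested on simulated data, not the range fit or the choice of probe sets. Probe sets were named from GEO's platform annotation. An exact permutation test of 3 against 3 arrays cannot go below p = 0.1. The text names members with an unadjusted p under 0.05 and, per family, the 2 brightest and those with the most positive and most negative difference, with up to 3 genes per list; others were chosen after their values were seen. Members and lists were chosen with earlier results of these data known. There were 16 alternatives; those of the animal number range were added after seeing the data.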

Additional observations from a re-analysis of the deposited data

How the results depend on the processing

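No member passed at an adjusted p under 0.05, in either direction, under any of the 16 alternatives. The median difference of the members (-0.07) stayed negative under all 16, from -0.13 to -0.04. The count of members lower by 1.5-fold at an unadjusted p under 0.05 (1, Mgst3) was 0 in robust limma and 2 with array weights (Gstt2 and Mgst3), and ran from 0 to 5 when single arrays were left out. It was 3 without wild-type replicate 1, 5 without transgenic replicate 3, and 0 without wild-type replicate 3 or transgenic replicate 1 or 2. The count of those higher (0) ran from 0 to 2, being Gstm4 when wild-type replicate 1 was left out, and Sult2a2 and Sult5a1 when transgenic replicate 3 was. The range counts (9 above, 1 below) ran from 3 to 9 and from 1 to 6 when single arrays were left out; 9 to 11 were above under the other settings. Of the named differences, those of Gstp1, Mgst1 and Ugt2b5 turned sign: Gstp1 was -0.032 with the range as a term and -0.046 to 0.069 with arrays left out, Mgst1 was 0.017 as the mean of its probe sets and -0.034 to 0.013 with arrays left out, and Ugt2b5 was -0.056 to 0.034. The causes were not tested. No paired analysis was possible because replicate numbers were given in accession order. Gene levels below the median of all probe sets (9 members) limit what these arrays can show.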

Other observations

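The Ugt1a genes, which share their last exons and include the bilirubin glucuronosyltransferase Ugt1a1, were read by 3 probe sets that carry several symbols and so belonged to no single gene. They differed between genotypes by -0.10 ± 0.12, -0.08 ± 0.10 and -0.21 ± 0.12, and all 3 had higher means in the higher animal numbers. A probe set shared by Gm3776, Gsta2 and Gsta1 differed by 0.30 ± 0.38, and one shared by Ugt2a2 and Ugt2a1 by -0.18 ± 0.10.

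Elovl3, a male-biased fatty acid elongase, read 11.70, 11.50 and 11.60 in the lower animal numbers and 8.04, 10.12 and 9.31 in the higher. Cyp2b9, a female-biased cytochrome, read 4.46, 5.88 and 7.27 against 6.93, 8.91 and 8.01. Both were chosen after their values were seen, and all 6 samples are labelled male.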
